A study of Homo sapiens with 12 samples.

Results

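Sa/CD99_wt22 and Sa/CD99_wt36 are transfected lines made from SaOS-2, an osteosarcoma cell line of osteoblast-like cells, by introducing CD99 with calcium phosphate and selecting stable transfectants in neomycin. The 2 clones were compared directly, 3 arrays of wt22 against 3 arrays of wt36, which is 6 of the 12 arrays in the series. Cells had been kept in osteogenic differentiation medium for 0, 7 or 14 days, and the arrays of the clones were paired by day. The 6 arrays of untransfected SaOS-2, 2 on each day, served as the reference that shows which clone left the parental level. Total RNA was hybridised to Affymetrix HG-U133 Plus 2.0 arrays, on which each gene is read by 1 or more probe sets. A gene entered the comparison when the signal of a probe set was above 100 (6.64 on the log2 scale) in at least 4 of the 12 arrays, which 18677 probe sets and 9731 named genes did. Each clone is 1 line, with 1 array per day, so the 3 days of a clone are repeated looks at the same line. Nothing in the labels says that arrays came from separate cultures, and the p-values measure the spread between these arrays, which may be partly technical. The arrays read whole cultures, in which fewer cells expressing a gene and less RNA per cell cannot be told apart.

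CD99 is a small surface glycoprotein with roles in cell adhesion, migration and differentiation, and SaOS-2 cells carry out the early steps of bone formation, laying down collagen and other matrix proteins and raising alkaline phosphatase. A stable transfectant line is grown out from selected cells after foreign DNA has entered at sites that are not controlled. Sister clones therefore share the transgene and the parent, while each also has a history of its own.

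A difference between the clones was called when limma gave an adjusted p of at most 0.05 and a change of at least 1.5-fold, the thresholds used for the study itself. Of the 9731 genes, 312 were called, 3.21% of all tested. In wt22, 175 genes (1.8%) were higher and 137 genes (1.41%) were lower than in wt36. All 312 had the same sign on the 3 days, which the test itself favours, and over all genes the share was 41.3%. The median absolute difference was 0.86 among the called genes and 0.12 over all genes, on the log2 scale. There were 110 called genes with at least a 2-fold difference and 32 with at least a 4-fold difference, 16 in each direction. On single days the 2 clones differed by 2-fold or more in 155 genes at day 0, 187 at day 7 and 224 at day 14, whereas the 2 SaOS-2 arrays of a day differed that far in 0, 1 and 0 genes. The latter are repeat arrays of 1 line and show the spread of the measurement, not that between lines. Where a called gene had several probe sets above the floor (106 genes), all of them pointed the same way, and in 58 genes all of them were called. The count depended on which days entered. Without day 0 it was 495 and without day 14 it was 235. Without day 7, with 1 residual degree of freedom, limma called 0 genes, 945 genes had an unadjusted p of at most 0.05, and 354 were called when all 12 arrays were fitted without that day. With day left out of the model as a block, 14 genes were called.

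The gene that differed most was NLGN4X, which encodes a neuroligin, a cell adhesion protein of synapses. Its log2 level was 6.47, 4.84 and 4.44 in wt22 at days 0, 7 and 14, and 10.06, 9.60 and 9.37 in wt36. The means of the 2 SaOS-2 arrays were 7.95, 6.88 and 6.25 on those days, so that the parental line lay between the clones throughout. The difference was -4.43 ± 0.26 (SE) on the log2 scale, 21.5-fold, with an adjusted p of 0.0022. All 3 wt22 arrays, and SaOS-2 at day 14, were under the signal floor. EPYC, which encodes epiphycan, a small leucine-rich proteoglycan of cartilage, stood at the opposite end of the ranking. It read 9.23, 8.28 and 7.73 in wt22 and 5.93, 3.42 and 3.33 in wt36, where all 3 values were below the signal floor. SaOS-2 means were 9.06, 7.72 and 7.59, close to wt22. The difference was 4.19 ± 0.28, 18.2-fold, with an adjusted p of 0.0034. Values under the floor are close to background, so that the folds of both genes are approximate.

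**Figure D1:**
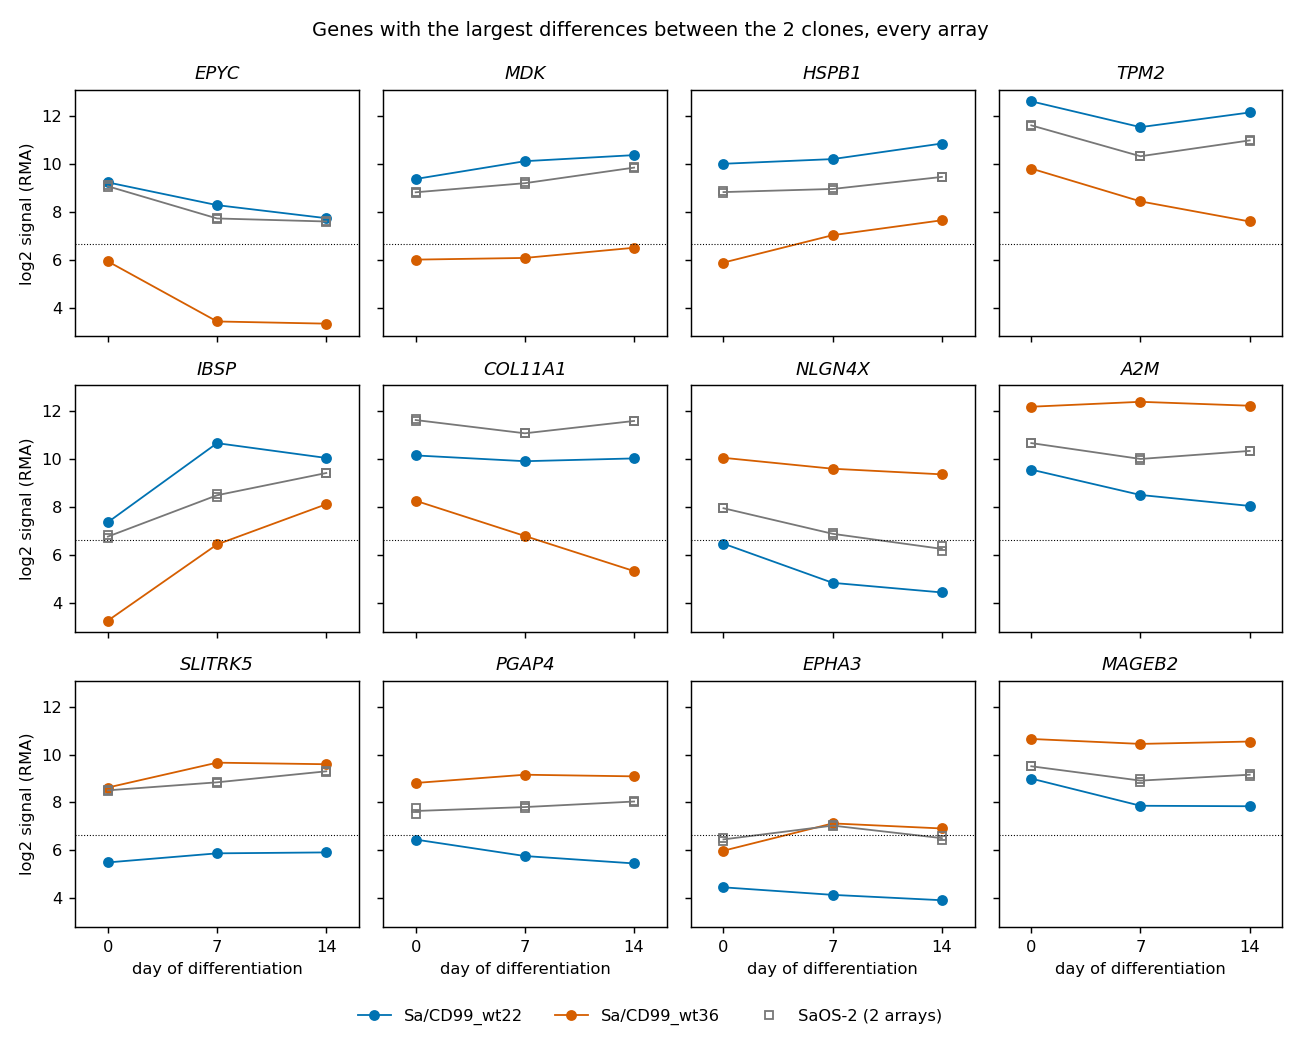
Log2 signal (RMA) by day of differentiation for the 6 genes with the largest differences in each direction among the called genes. Blue and orange points are single arrays of Sa/CD99_wt22 and Sa/CD99_wt36, open squares the 2 SaOS-2 arrays of each day with a line through their mean, and the dotted line is the signal floor at 6.64; the clones do not overlap in any panel on any day.

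Of the other genes higher in wt22, MDK, the heparin-binding growth factor midkine, read 9.37, 10.11 and 10.36 in wt22 and 6.0, 6.07 and 6.50 in wt36, with SaOS-2 means of 8.81, 9.19 and 9.84. All wt36 arrays lay under the floor and wt22 was above SaOS-2 on each day, and the difference was 3.76 ± 0.15 (adjusted p = 0.0012). HSPB1, a small heat shock protein that protects actin filaments, read 10.00, 10.20 and 10.85 in wt22 and 5.88, 7.02 and 7.64 in wt36, a difference of 3.50 ± 0.20. TPM2, the beta-tropomyosin of actin filaments, read 12.61, 11.53 and 12.15 against 9.80, 8.43 and 7.59, a difference of 3.49 ± 0.32. Of its probe sets, both that passed the floor were called. COL11A1, a chain of the cartilage collagen type XI, was below SaOS-2 in both clones and much further in wt36, which read 8.26, 6.79 and 5.33, than in wt22, which read 10.16, 9.92 and 10.03. Its difference was 3.24 ± 0.48 (adjusted p = 0.030), and all 3 of its tested probe sets were called.

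The 15 largest positive differences also included IBSP, described with the osteoblast markers, and the remaining 9 ranged from 2.04 to 3.02 on the log2 scale. They comprised LOC151760, a locus on 3q with no role named in the annotation, TNFRSF10A, a death receptor for TRAIL, and IL11RA, the receptor for interleukin-11, which acts in bone and other tissues. They also held the armadillo-repeat gene ARMCX2, the protocadherins PCDHB5 and PCDH18, the secreted protein gene CRISPLD1, the matrix-associated surface protein gene MXRA8 and GRAMD2B, a GRAM domain protein. IL11RA was 7.59, 8.13 and 8.21 in wt22 and 5.46, 5.37 and 5.22 in wt36, around SaOS-2 means of 7.06, 7.24 and 7.53. ARMCX2 and PCDH18 were near SaOS-2 in wt22 (-0.30 and -0.30 from it) and far below it in wt36 (-2.72 and -2.35). All wt36 values of IL11RA and PCDH18 lay under the signal floor, so that their differences are approximate.

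Among the genes higher in wt36, A2M, the plasma protease inhibitor alpha-2-macroglobulin, read 12.19, 12.40 and 12.23 in wt36 and 9.57, 8.51 and 8.05 in wt22, with SaOS-2 means of 10.67, 10.01 and 10.35 between them. The difference was -3.57 ± 0.29 (adjusted p = 0.0066). SLITRK5, a transmembrane protein of neurites and synapses, read 5.50, 5.87 and 5.91 in wt22, below the floor, and 8.62, 9.66 and 9.60 in wt36. Here wt36 was near the parental means of 8.51, 8.84 and 9.30, and the difference was -3.53 ± 0.15. PGAP4, an enzyme that modifies glycosylphosphatidylinositol anchors, differed by -3.13 ± 0.24, and EPHA3, an ephrin receptor kinase, by -2.50 ± 0.29. EPHA3 was at parental level in wt36 (0.01 from SaOS-2) and -2.50 from it in wt22, where the arrays read 4.46, 4.14 and 3.92. These wt22 arrays, and the SaOS-2 means at days 0 and 14, lay under the signal floor, so that the distance is approximate.

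The other genes of the 15 with the largest negative differences ranged from -2.31 to -2.05. They were MAGEB2, a cancer-testis antigen, CLGN, an endoplasmic reticulum chaperone of the testis, MYOCD, a coactivator of smooth muscle transcription, and SYNDIG1, a synaptic membrane protein. Also among them were GPX3, a secreted glutathione peroxidase, GNG11, a G protein gamma subunit, NME4, a mitochondrial nucleoside diphosphate kinase, and BEX1, a small signalling adaptor of the nervous system. ITGA7, the laminin-binding integrin alpha-7 of muscle, and AMPH, the endocytosis protein amphiphysin, completed the list. ITGA7 read 7.0, 7.01 and 7.57 in wt22 and 8.94, 9.10 and 9.70 in wt36, and its standard error was small (0.09). GPX3 was below SaOS-2 in both clones, by -3.00 in wt22, where all arrays lay under the signal floor, and -0.83 in wt36.

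Next, each clone was set against SaOS-2 in 1 model of all 12 arrays, to see which clone lay away from the parental level. The 2 comparisons share the SaOS-2 arrays, and their values are given side by side without a test between them. Against SaOS-2, 376 genes were called in wt22 (3.86% of genes tested), of which 146 were higher and 230 lower, and 369 in wt36 (3.79%), of which 121 were higher and 248 lower. Neither clone alone accounted for the clone difference. Of the 175 genes higher in wt22 than in wt36, 57 were called against SaOS-2 in wt22 only and 57 in wt36 only. A further 10 were called in both with opposite signs, 3 in both with the same sign, and 48 in neither. Of the 137 genes lower in wt22, 42 were called in wt22 only, 40 in wt36 only, 15 in both with opposite signs, 5 in both with the same sign and 35 in neither. The median distance from SaOS-2 of the genes higher in wt22 was 0.45 in wt22 and -0.42 in wt36, and that of the genes lower in wt22 was -0.48 and 0.52.

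**Figure D2:**
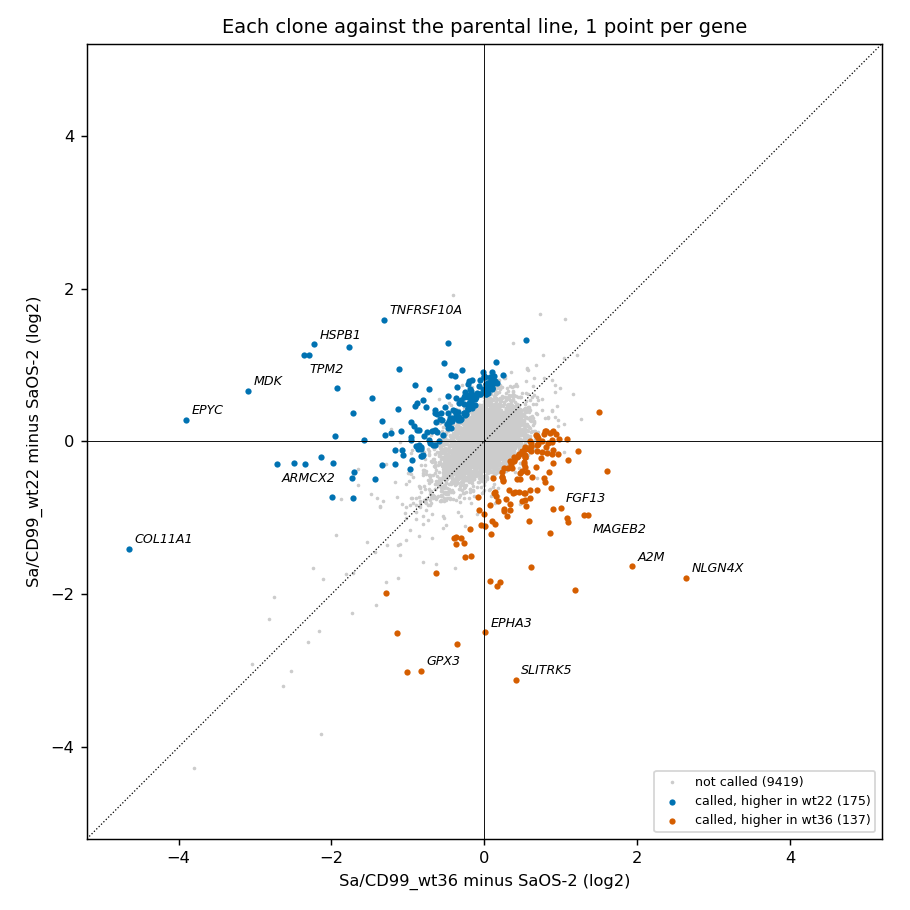
Log2 difference from SaOS-2 of Sa/CD99_wt36 (horizontal) and Sa/CD99_wt22 (vertical), 1 point per gene of 9731; blue and orange mark the 175 and 137 genes called higher in wt22 and in wt36, and the dotted diagonal marks equal distance. Both axes use the same SaOS-2 arrays, so the slope of the grey points is not a result; called genes lie along both axes and in the quadrants where the clones lie on opposite sides of SaOS-2.

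In 137 of the 312 called genes the clones lay on opposite sides of both SaOS-2 arrays on all 3 days, 69 with wt22 above and 68 with wt22 below. Choosing genes by the gap between the clones makes such a position likelier, so that the count is a description, and over all genes tested the share was 3.43%. NLGN4X, A2M, MDK, HSPB1, EPYC and SLITRK5 were the largest of these. FGF13, an intracellular fibroblast growth factor homologue, was a further example, with 9.79, 8.99 and 8.83 in wt22, 11.46, 10.94 and 10.81 in wt36 and SaOS-2 means of 10.37, 9.87 and 9.98. The distances were -0.87 and 1.0 from SaOS-2, and the clone difference was -1.87 ± 0.11. NME4 (-1.01 and 1.09) and SYNDIG1 (-0.96 and 1.30) were placed in the same way.

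CD99, the transfected gene, did not separate the clones. The brighter of its 2 probe sets read 12.33, 12.64 and 12.74 in wt22, 12.32, 12.55 and 12.67 in wt36 and 12.29 to 12.66 in SaOS-2, and the clone difference was 0.06 ± 0.09 (adjusted p = 0.81). The second probe set read 6.67, 8.36 and 8.24 in wt22 and 6.73, 6.73 and 8.88 in wt36, far below the 11.26 to 11.88 of SaOS-2. The 2 probe sets thus disagree, and on the brighter one the clones differed from SaOS-2 by 0.08 (wt22) and 0.02 (wt36), which was not called, where the label of a CD99 transfectant would have it higher. The study also measured CD99 by real-time PCR, which was not analysed here. On the second array probe set the clones differed by 0.31 ± 0.40 (adjusted p = 0.75). CD99L2, the paralogue, differed by 0.09 ± 0.13.

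Osteoblast markers were present in both clones, and those described next were not called. RUNX2, the transcription factor that starts the osteoblast programme, read 11.74, 12.31 and 11.71 in wt22 and 11.48, 12.25 and 11.82 in wt36. ALPL, the alkaline phosphatase needed for mineralisation, was below SaOS-2 in both clones (-0.74 in wt22, -0.49 in wt36) and the clones differed by -0.26 ± 0.11, which was not called. SP7, osterix, differed by 0.64 ± 0.12 with an adjusted p of 0.052, just outside the threshold. SPARC and FN1, abundant matrix genes, differed by -0.04 and -0.15, with standard errors of 0.15 and 0.13. COL1A1, the other chain of type I collagen, differed by 0.14 ± 0.17 on its brightest probe set and by 0.58, 0.49 and 0.79 on the other 3 tested, none of them called. On those 3 the day-14 differences were 1.2, 1.46 and 1.28. SPP1, osteopontin, stayed below the floor on all arrays, with values of 2.63 to 4.41, and BGLAP, osteocalcin, was not analysed here. Epithelial, haematopoietic, endothelial and neural markers rarely passed the floor, with 3 of 24, 1 of 19, 1 of 13 and 5 of 28 tested. Among these only NEFH, a neurofilament subunit, was called (-1.08). Muscle and adipogenic genes passed it more often. Of 41 muscle contractile genes 15 were tested and TPM2 was called (3.49). Of 21 adipogenic and lipid storage genes 10 were tested and CEBPD was called (0.65), a gene in the stretch of 8q described below. Over all genes 3.21% were called, so that single calls in lists of this size are not a result about the lists.

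IBSP, integrin-binding sialoprotein of mineralising matrix, was the called bone matrix gene that was higher in wt22. Its levels were 7.37, 10.67 and 10.05 in wt22 and 3.26, 6.44 and 8.12 in wt36, while SaOS-2 means were 6.77, 8.50 and 9.42. All 3 lines read lowest at day 0, and wt36 was lowest of the lines on each day. The difference was 3.42 ± 0.44 (adjusted p = 0.022), and the second probe set, at 1.86 ± 0.37, was not called (adjusted p = 0.061). wt36 lay under the signal floor at days 0 and 7, so that the size of the difference is approximate.

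Calls in the collagen and matrix protease lists were all higher in wt22, while the bone matrix list had 1 higher and 1 lower of 10 tested (median -0.09). Of 32 collagen chains, 14 were tested, 4 were called higher in wt22 and 0 lower, with a list median of 0.26 against -0.02 over all genes. Over all genes tested, 1.8% were called higher in wt22 and 1.41% lower, and these lists were not tested as a whole. The 4 were COL11A1, COL6A1, COL6A2 and COL7A1. COL6A1 and COL6A2, whose products assemble in type VI collagen, read 12.92, 12.11, 12.36 and 13.30, 12.30, 12.66 in wt22 and 12.20, 11.14, 11.38 and 12.66, 10.68, 11.24 in wt36. wt22 stayed near SaOS-2 for both (-0.17 and 0.14) and wt36 was lower (-1.06 and -1.09). COL7A1, of anchoring fibrils, differed by 0.62 ± 0.10. ADAMTS5, an aggrecan-degrading protease, was higher in wt22 on all days (9.37, 9.86 and 8.88 against 8.01, 8.38 and 7.50), and MMP14, a membrane-bound collagenase, differed by 0.78 ± 0.14. These 2 were the called genes among 12 tested matrix proteases and inhibitors. MMP14 was just inside the threshold (limma adjusted p = 0.04996), and 2 of its 4 tested probe sets were called. EFEMP1, fibulin-3, went the other way, reading 7.29, 7.43 and 7.91 in wt22 and 8.08, 8.82 and 9.68 in wt36 (-1.32 ± 0.19).

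Of 18 tested growth factors and receptors 4 were called, and of 19 tested Wnt genes 2, where 3.21% of all genes were, with list medians of 0.13 and -0.10. In the first list MDK and VEGFC (0.82), a lymphatic growth factor, were higher in wt22, and FGF13 and the receptor kinase KIT (-0.96) were lower. DKK1, a secreted Wnt inhibitor, was higher in wt22 (9.38, 6.98 and 6.10 against 8.02, 5.32 and 5.45), as was the Wnt receptor FZD5 (0.59), the 2 called genes of 19 tested in the Wnt list. JAG1, a Notch ligand, was lower in wt22, with 9.11, 7.89 and 7.30 against 9.90, 9.07 and 8.49. SOX9, the cartilage transcription factor, was also lower in wt22, with 8.51, 8.06 and 7.76 against 9.35, 9.29 and 9.06. For both genes wt36 was at parental level (-0.04 and 0.01 from SaOS-2) and wt22 was below it (-1.09 and -1.11), where it was called. The homeobox genes HOXD8 (-0.61), HOXD10 (-0.63) and MSX2 (-0.59) were lower in wt22 by amounts close to the 1.5-fold cut. HOXD8 and HOXD10 were the called genes of 15 tested HOX genes, and MSX2 of 13 tested osteoblast transcription factors. JAG1 was the called gene of 10 tested in the Notch list. Of 4 tested cartilage genes SOX9 was called lower in wt22 and COL11A1 higher. These counts are to be read against the 3.21% called over all genes.

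The remaining lists are given by their called members, to be read against the 3.21% called over all genes, and no list was tested as a whole. Glutathione and redox enzymes held GPX7 (1.02) and GSR (0.60) higher in wt22 and GPX3 (-2.17) and GSTA4 (-1.20) lower, of 31 tested (list median -0.12). Of 9 tested cancer-testis antigens, MAGEB2 (-2.31), PRAME (-0.95) and SSX1 (-0.81) were lower in wt22. Of 22 tested genes of the BCL2 family and apoptosis list, TNFRSF10A (2.90), BNIP3L (0.93) and TNFRSF10B (0.83) were higher in wt22, and all 3 lie on 8p. Single called members were POLE2 (0.73) in DNA replication, BMP1 (0.73) in BMP signalling, KLF4 (0.83) among immediate early factors, PHLDA1 (0.66) in ERK feedback and CEBPD (0.65) among adipogenic genes. CA12 was higher (0.85) and EGLN3 lower (-0.88) among hypoxia genes, SEMA3C (-0.65) and EPHA3 (-2.50) were lower in axon guidance, PCDH7 was lower (-0.98) and PCDH18 higher (2.05) among cadherins, and USP18 was lower (-1.01) among interferon-stimulated genes. In MHC and antigen processing, HLA-DPA1 (1.22) and TAPBP (0.72) were higher. No member was called among 37 mitotic genes, 38 respiratory chain subunits, 25 ER stress genes, 22 genes of TGF-beta signalling, 22 of sterol and fatty acid synthesis, 19 of AKT and PI3 kinase and 13 of insulin-like growth factors. Their list medians lay between -0.12 and 0.002.

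The protocadherin beta genes, a cluster of closely spaced adhesion genes on 5q whose promoters are switched on in varying combinations between cells, are described as a group that was picked out after the values were seen. All 8 tested were higher in wt22, with a median of 0.98, and 5 were called, where 1.8% of all genes were called higher. PCDHB5 read 7.73, 7.85 and 8.12 in wt22 and 6.19, 5.39 and 5.48 in wt36, with SaOS-2 means of 8.47, 7.78 and 8.29. PCDHB7 read 6.85, 6.88 and 7.43 against 5.42, 4.88 and 4.78, around SaOS-2 means of 6.82, 6.66 and 7.47. All wt36 values of PCDHB5 and PCDHB7 lay under the signal floor. The sizes of their differences, and the medians that include them, are therefore approximate. wt22 was at or slightly below parental level (median -0.17 over the 8 genes) and wt36 was lower (median -1.25). PCDHB12 (1.06), PCDHB11 (1.03) and PCDHB2 (0.94) were also called, and PCDHB13 (0.56), PCDHB3 (0.42) and PCDHB18P (0.39) were not. Of the neighbouring gamma cluster 3 genes were tested, with differences of 0.56 to 0.65, and PCDHGA4 was called. Probe sets of such similar genes can read each other, and the 8 values are not independent.

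The 250 bases before the annotated start of 4 of the called beta genes are shown because the genes differed in the same direction and share a short sequence there, given in capitals, TGGCGCTG. They are RefSeq promoters (GRCh38.p14, all on the + strand), at chr5:141094365-141094614 for PCDHB2, chr5:141134956-141135205 for PCDHB5, chr5:141172394-141172643 for PCDHB7 and chr5:141208469-141208718 for PCDHB12.
PCDHB2: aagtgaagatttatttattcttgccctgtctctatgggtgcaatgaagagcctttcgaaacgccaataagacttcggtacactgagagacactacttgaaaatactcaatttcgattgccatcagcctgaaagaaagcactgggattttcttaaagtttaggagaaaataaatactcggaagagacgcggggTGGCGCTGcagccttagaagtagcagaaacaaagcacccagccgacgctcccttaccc
PCDHB5: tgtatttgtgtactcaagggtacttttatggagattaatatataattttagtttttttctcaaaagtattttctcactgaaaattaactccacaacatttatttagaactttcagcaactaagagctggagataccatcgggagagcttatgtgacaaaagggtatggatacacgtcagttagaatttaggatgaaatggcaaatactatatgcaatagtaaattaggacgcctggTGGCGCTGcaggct
PCDHB7: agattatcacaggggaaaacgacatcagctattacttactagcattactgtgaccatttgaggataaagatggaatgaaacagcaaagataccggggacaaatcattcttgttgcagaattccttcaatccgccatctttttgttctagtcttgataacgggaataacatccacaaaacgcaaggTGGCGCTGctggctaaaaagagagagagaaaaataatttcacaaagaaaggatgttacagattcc
PCDHB12: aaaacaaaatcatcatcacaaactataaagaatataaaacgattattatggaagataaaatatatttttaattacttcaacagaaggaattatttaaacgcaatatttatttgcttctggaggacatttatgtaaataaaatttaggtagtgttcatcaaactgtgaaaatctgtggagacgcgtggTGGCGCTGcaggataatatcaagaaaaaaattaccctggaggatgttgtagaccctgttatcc

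The 8 letters were searched on both strands and occurred in 1.45% of all 35116 promoters of that table, and in 11 of its 14 PCDHB promoters. Of the 8 tested PCDHB genes, 6 had a promoter in the table and all 6 held the letters, both those called and PCDHB3 and PCDHB13, which were not. The shared letters therefore did not separate called from uncalled members.

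ARMCX2 and BEX1 lie near each other on Xq in a family many of whose promoters share a motif, and the clones differed in them in opposite directions. ARMCX2 read 8.83, 9.31 and 9.63 in wt22 and 6.90, 7.17 and 6.46 in wt36 (2.41 ± 0.24). BEX1 read 6.49, 5.96 and 6.12 in wt22 and 8.78, 8.17 and 7.79 in wt36 (-2.06 ± 0.14). All wt22 values of BEX1, and the wt36 value of ARMCX2 at day 14, lay under the signal floor, so that both differences are approximate. In each gene 1 clone kept the parental level, wt22 for ARMCX2 (-0.30 from SaOS-2) and wt36 for BEX1 (0.16). Of the 13 tested BEX, ARMCX and TCEAL genes, a group picked out after the values were seen, ARMCX2 and BEX1 were the called members. Over all genes 3.21% were called. ARMCX1 (0.12) and BEX3 (-0.03) hardly differed. Their 250 upstream bases, at chrX:101659851-101660100 and chrX:103064172-103064421 (GRCh38.p14, - strand), are shown with CACGTGAC in capitals.
ARMCX2: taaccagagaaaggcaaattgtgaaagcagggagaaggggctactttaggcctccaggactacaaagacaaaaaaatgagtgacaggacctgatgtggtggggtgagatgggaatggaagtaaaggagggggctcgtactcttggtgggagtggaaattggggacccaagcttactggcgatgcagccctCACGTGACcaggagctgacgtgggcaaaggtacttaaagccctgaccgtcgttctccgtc
BEX1: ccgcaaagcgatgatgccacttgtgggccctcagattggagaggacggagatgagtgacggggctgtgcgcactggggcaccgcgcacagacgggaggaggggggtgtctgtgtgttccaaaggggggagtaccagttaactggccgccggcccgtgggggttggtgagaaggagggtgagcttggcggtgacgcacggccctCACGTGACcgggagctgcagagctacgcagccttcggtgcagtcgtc

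These 8 letters were present in 2.16% of the 35116 promoters on either strand, and in 7 of the 12 tested family members that have a promoter in the table. The pair thus holds the same letters and differed oppositely between the clones.

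The called genes were then placed on chromosome arms, and 5 arms stood apart from the rest. On 8p, 39 of 104 tested genes (37.5%) were called higher in wt22 and 0 lower, and the median difference was 0.55, a fold of 1.47. The medians on single days were 0.49, 0.50 and 0.69, and 99 of the 104 genes were above 0. On 8q, 29 of 240 genes were called higher and 3 lower (median 0.26). On 6p the figures were 13 higher and 1 lower of 294 (0.23), and on 9p 5 higher and 0 lower of 103 (0.28). On 20p the shift was the reverse, with 0 higher and 15 lower of 92 genes and a median of -0.36. With genes under the signal floor included the medians were nearer 0, at 0.14 on 8p, 0.084 on 8q, 0.054 on 6p, 0.079 on 9p and -0.092 on 20p. Among genes above the floor, the medians of the other 36 arms with at least 20 genes ranged from -0.09 to 0.04. The 5 arms hold 833 tested genes, of which 86 (10.3%) were called higher and 19 (2.28%) lower in wt22. Outside them the called genes were 89 higher (1.0%) and 118 lower (1.33%) of 8898. The 5 arms were picked out by their shift in these same values, so that this split is a description.

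**Figure D3:**
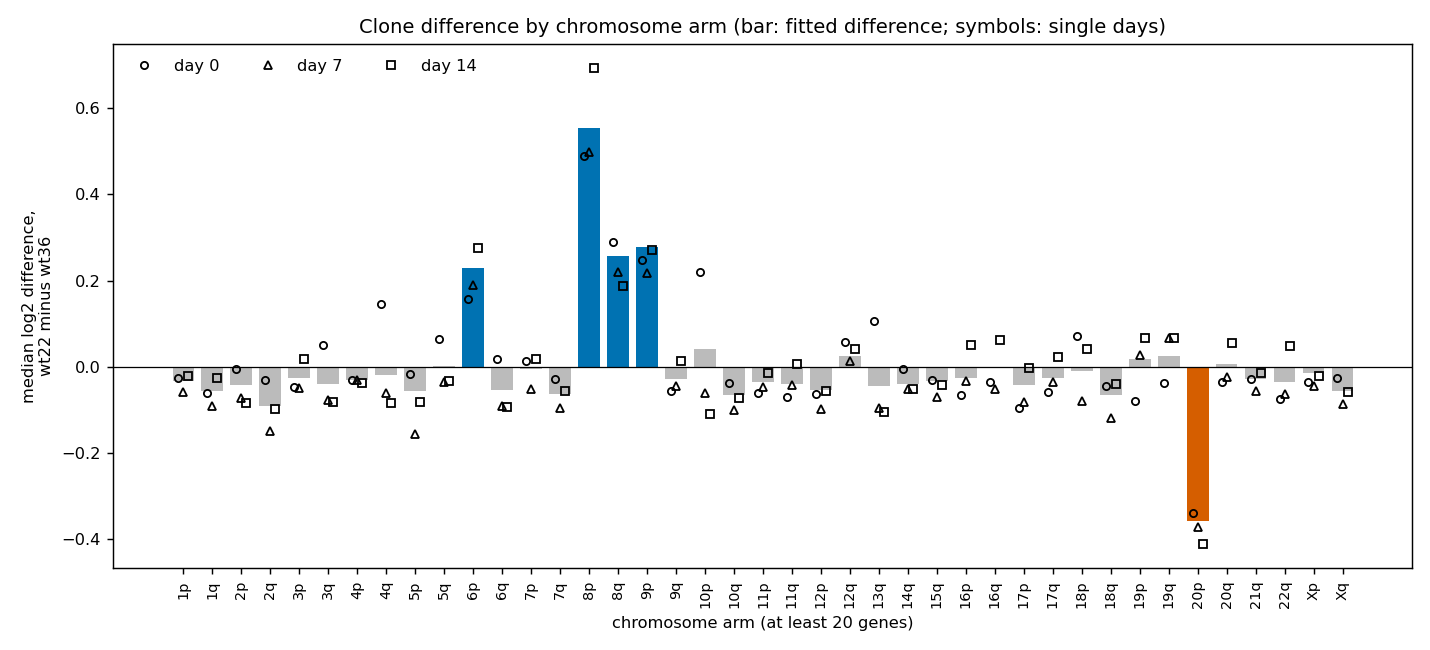
Median log2 difference, wt22 minus wt36, over the tested genes of each chromosome arm with at least 20 genes; bars are the fitted difference over 3 days and open symbols the medians on days 0, 7 and 14. The arms 6p, 8p, 8q and 9p (blue) lie above and 20p (orange) below the other 36 arms on all 3 days, with the exception that 10p reached 0.22 on day 0 alone.

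Within these arms the shift ran over stretches of neighbouring genes, whose ends were read from the running median and so were chosen after the values were seen. On 6p it covered the 217 tested genes from DUSP22 to NFYA, of which 194 were above 0 (median 0.28). The stretch was not even, since near GMPR to CDKAL1 the running median was close to 0 and CAP2, FAM8A1, KIF13A and ID4 were at -0.26, -0.41, -0.29 and -0.48. The 77 genes from there to the centromere had a median of -0.05. On chromosome 8 it covered all of 8p and the 132 tested genes of 8q out to EBAG9 (median 0.42), and the 108 genes beyond had a median of 0.04. This stretch was uneven too. Near the centromere on 8p the running median fell to 0.19 at VDAC3, and that of wt22 minus SaOS-2 to 0.12. At EMC2, near the outer end of the stretch on 8q, they were 0.26 and 0.03. On 9p the 84 genes from KANK1 to TMEM8B had a median of 0.33 and the remaining 19 a median of -0.06. On 20p the 65 genes from STK35 to RALGAPA2 had a median of -0.43, with 63 below 0, and the other 27 genes a median of -0.01. The distance from SaOS-2 differed between stretches. On 8p wt22 was above SaOS-2 (median 0.57) and wt36 was not (0.01), and on the 9p stretch the values were 0.22 and -0.05. On the 6p stretch they were 0.16 and -0.11. On the 20p stretch wt36 was above SaOS-2 (0.32) and wt22 slightly below (-0.12).

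**Figure D4:**
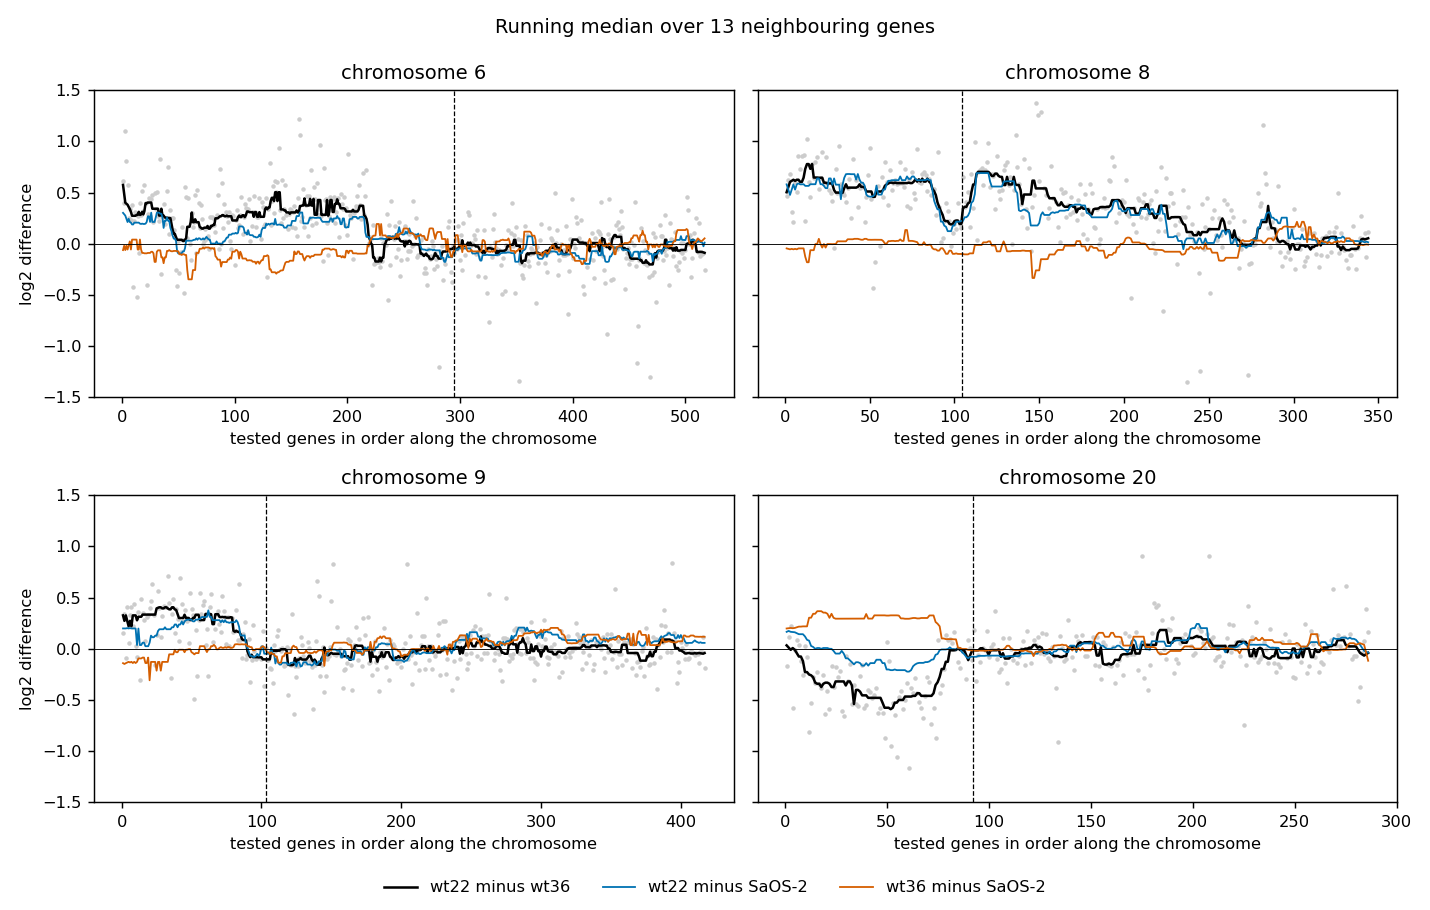
Log2 difference of each tested gene (grey points, wt22 minus wt36) in order along chromosomes 6, 8, 9 and 20, with running medians over 13 genes for wt22 minus wt36 (black), wt22 minus SaOS-2 (blue) and wt36 minus SaOS-2 (orange); the dashed line parts the short from the long arm, and values beyond 1.5 are not drawn. The black line is above 0 over most of outer 6p, most of 8 and outer 9p and below 0 over most of 20p, and returns to about 0 elsewhere.

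Genes on these arms included some of the largest differences and many small ones. TNFRSF10A on 8p read 7.69, 7.22 and 8.19 in wt22 and 4.84, 4.74 and 4.83 in wt36, with SaOS-2 means of 5.96, 5.80 and 6.56. Its difference was past the arm's median, but all wt36 arrays and the SaOS-2 means lay under the signal floor. The gene passed the filter through the wt22 arrays and a SaOS-2 array of day 14. The size of its difference and the position of SaOS-2 are therefore approximate. SLC39A14, a zinc and iron transporter, and BNIP3L, a mitophagy receptor, were next among the called genes of 8p, with 0.96 and 0.93. On 8q, CRISPLD1 (2.09) and LY6E, a surface antigen (1.55), were higher in wt22, while TPD52, a vesicle trafficking protein, was lower (7.87, 6.57 and 5.85 against 9.22, 8.21 and 7.74). On 9p the largest were TPM2, IL11RA and MTAP, an enzyme of methionine salvage (0.71), and CDKN2A on that arm differed by 0.45 ± 0.09, which was not called. On 6p HLA-DPA1 (1.22) and HLA-DPB1 (1.07), chains of an MHC class II molecule, were higher in wt22, and GSTA4, a glutathione transferase outside the shifted stretch, was lower (8.34, 8.78 and 8.88 against 9.72, 9.93 and 9.96). On 20p SYNDIG1, JAG1 and PLCB4, a phospholipase (-0.95), were the largest. LY6E and SYNDIG1 lie outside the shifted stretches of their arms.

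Smaller groups of genes on 18q and 19q also differed, and were picked out after the values were seen. The 6 tested genes from RIOK3 to SS18 on 18q were all higher in wt22 (median 0.82), and 4 were called, where 1.8% of all genes were called higher. wt22 was at parental level there (0.04) and wt36 below it (-0.80), while over the whole of 18q both clones were below SaOS-2 (medians -0.66 and -0.55). SS18, a chromatin remodelling subunit, read 8.86, 8.57 and 8.37 in wt22 and 7.83, 7.60 and 7.37 in wt36. On 19q, 68 zinc finger genes named ZNF, ZSCAN, ZFP36 or ZIK1 were tested, with a median of 0.29. Of these, 59 (86.8%) were above 0 and 12 (17.6%) were called, all higher in wt22. Among all tested genes of 19q, 58.5% were above 0 and 3.86% were called higher, and among all genes 45.1% and 1.8%. ZSCAN18 (1.64), ZNF667-AS1 (1.60), an antisense RNA, and ZNF667 (1.13) had the largest differences of the 12, with wt36 at -0.91, -1.34 and -0.92 from SaOS-2 and wt22 at 0.74, 0.26 and 0.21. ZNF667 and ZNF667-AS1 share a start region, and whether their probe sets tell the strands apart was not tested.

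Finally, the difference between the clones was followed over the days of differentiation, without a test, since there is 1 array per clone and day. In 23 genes the differences of 2 days lay more than 2 apart on the log2 scale, in 16 with the higher difference on the later day. TNNC1, slow skeletal and cardiac troponin C, read 6.28, 6.93 and 7.78 in wt22 and 7.32, 5.05 and 5.38 in wt36, so that the order of the clones turned from -1.04 at day 0 to 1.88 and 2.40. COL1A2, a chain of type I collagen, read 12.21, 12.82 and 13.35 in wt22 and 11.12, 10.80 and 9.47 in wt36, while SaOS-2 means were 10.41, 10.68 and 11.53. The difference grew from 1.09 to 2.02 and 3.88 and, averaged over days, was not called (2.33 ± 0.48, adjusted p = 0.064). Its second tested probe set gave 1.09, 1.87 and 3.92. COL11A1 grew likewise, from 1.89 to 3.12 and 4.71, and the immediate early factor EGR1 moved from -1.04 to 0.25 and 1.64. MAP3K7CL moved from -0.18 and -0.60 to 1.98.

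In the other 7 genes the later difference was the lower one. SELENOP, a secreted selenium carrier, read 9.50, 10.44 and 9.47 in wt22 and 6.81, 8.54 and 9.90 in wt36, differences of 2.68, 1.90 and -0.44. IBSP went from 4.11 and 4.23 to 1.93 on its brightest probe set, with wt36 under the signal floor at days 0 and 7. The second probe set of IBSP gave 0.99, 3.09 and 1.51, so that a narrowing from day 0 was not seen on both. PDE5A, a cyclic GMP phosphodiesterase, went from 1.34 and 0.83 to -0.96. For RASL12, a Ras-like protein, and CLGN the difference reached -2.67 and -3.56 at day 14. RASL12 read 4.99, 6.26 and 5.42 in wt22, while wt36 rose over the days, with 5.28, 7.14 and 8.08. CLGN read 5.72, 5.82 and 3.86 in wt22 and 6.95, 7.93 and 7.42 in wt36. All wt22 values of both genes lay under the signal floor. These genes were picked for the size of their change over days, which is a description of 6 arrays.

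**Figure D5:**
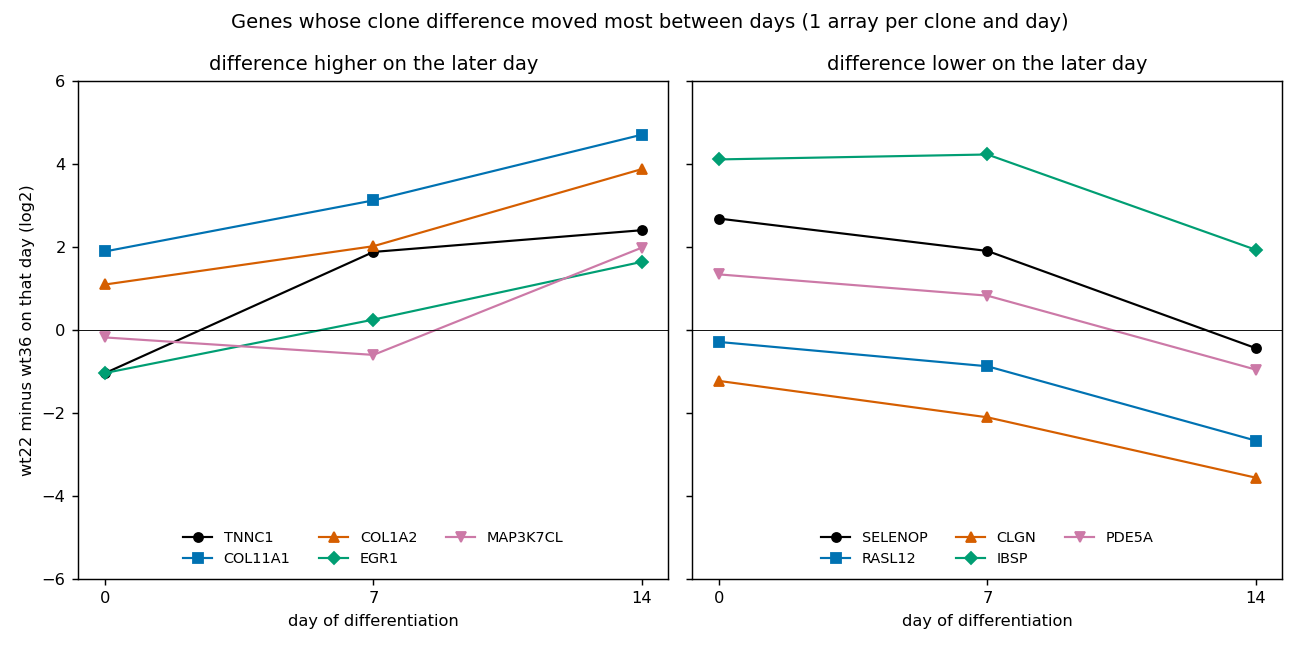
Difference between the clones (wt22 minus wt36, log2) on days 0, 7 and 14 for the 5 genes whose difference rose most and the 5 whose difference fell most from an earlier to a later day, 1 value per day from 1 array of each clone. TNNC1, EGR1 and MAP3K7CL cross 0 upwards and SELENOP and PDE5A downwards, while COL11A1, COL1A2, IBSP, CLGN and RASL12 keep their sign.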

How the data were processed

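The authors deposited log2 expression values per probe set of the Affymetrix HG-U133 Plus 2.0 array for the 12 samples, made with affy by RMA, which corrects background, normalises all arrays to 1 distribution and summarises the probes of a set (no versions are stated). Because all arrays were forced to 1 distribution, differences are relative to the array as a whole. The depth of an array has no count, and the number of arrays limits the precision. Of 54675 probe sets, 62 controls were left out, and 41091 carried 1 gene in the platform annotation (41037 updated by gene ID to GRCh38.p14 symbols). A gene was represented by its brightest probe set above the floor.

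limma 3.58.1 in R 4.3.3 (lmFit, eBayes) was fitted across all 18677 probe sets above the floor, with Benjamini-Hochberg adjustment over all of them: clone plus day for the 6 clone arrays (2 residual degrees of freedom), and a mean per line plus shared day terms over 12 arrays (7 residual degrees of freedom) for each clone against SaOS-2. The fits were tested on simulated data. Clones were paired by day as the labels give it.

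Genes named were the 15 largest called differences in each direction, up to 4 called members of each of 44 gene lists, up to 3 called genes of each arm described, the 6 largest with SaOS-2 between the clones, the 5 largest changes over days each way, and 17 genes fixed by name. The comparison and the lists were chosen with earlier results of these data known. The PCDHB, BEX and ARMCX, 18q and 19q groups, the 5 arms and the ends of stretches were chosen after their values were seen. Lists, arms and days were described without a test. Other filters, normalisations, models and samples left out were tried, and the authors' own lists were not used.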

Additional observations from a re-analysis of the deposited data

Results flagged for a closer look

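In 6 genes the clones lay on opposite sides of both SaOS-2 arrays on all 3 days and differed most from each other, which marks the same contrast against SaOS-2 as opposite in the 2 clones. wt22 minus wt36 was -4.43 for NLGN4X, 4.19 for EPYC, 3.76 for MDK, -3.57 for A2M, -3.53 for SLITRK5 and 3.50 for HSPB1, on the log2 scale. The clone difference itself was tested (limma, adjusted p of 0.0012 to 0.0066), and the opposite position was read from the arrays. For EPYC and SLITRK5 1 of the clones was near SaOS-2, at 0.29 (wt22) and 0.41 (wt36) from it. NLGN4X, A2M, MDK and HSPB1 were called against SaOS-2 in both clones, in opposite directions.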

How the results depend on the processing

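The number of genes called between the clones was 312. It stayed within 1.5 times that number with all 12 arrays in the fit (440, of which 310 were among the 312, or 446 with separate day means, which held all 312), a floor counted over the clone arrays (313), a filter on spread (356), quantile normalisation again (328), arrays centred on their medians (357), trended and robust moderation (367), the mean of all probe sets of a gene (359) and controls kept (312). It was 14 with no day block, 516 with no signal filter, 41 at an adjusted p of at most 0.01 and 110 at 2-fold or more. Leaving out 1 day gave 0 to 495 genes, and 354 to 564 in the 12-array fit, which was chosen after seeing the data. Against SaOS-2, with the replicate number of the SaOS-2 arrays as a replicate block, wt22 had 368 genes (376 without) and wt36 had 363 (369 without), so the pairing changed little. At 2-fold or more the counts were 89 and 99, and with no signal filter wt36 had 565.

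With no signal filter the arm medians were 0.054 on 6p, 0.14 on 8p, 0.084 on 8q, 0.079 on 9p and -0.092 on 20p, nearer 0 with genes under the floor included. Some single days lay more than 1 SD of the 3 days away from the arm's median of the fitted differences. They were 0.16 for 6p at day 0, 0.69 for 8p at day 14 and 0.19 for 8q at day 14. On 9p they were 0.25 and 0.22 at days 0 and 7, and on 20p -0.41 at day 14.

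All 72 called genes named kept their sign in every alternative run, and 44 kept the call in every one except no day block, without day 7 and the stricter adjusted p. Signs turned only in genes that were not called. SPARC was 0.28 and ACTB -0.00076 with all probe sets averaged, and ACTB was -0.0014 with arrays centred. With 1 day left out the ranges were -0.0064 to 0.25 for CD99L2, -0.026 to 0.16 for RUNX2, -0.062 to 0.37 for COL1A1, -0.24 to 0.065 for SPARC, -0.048 to 0.25 for RB1, -0.013 to 0.026 for ACTB, -0.40 to 0.94 for EGR1, -0.39 to 0.90 for MAP3K7CL and -0.065 to 1.08 for PDE5A. The causes of these changes were not tested. With 1 array per clone and day, small differences could not be detected.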

Other observations

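On 10p the median difference between the clones over 79 tested genes was 0.22, -0.06 and -0.11 on days 0, 7 and 14. On these days the wt36 arrays were at -0.33, -0.10 and 0.03 from SaOS-2, while wt22 was at -0.09, -0.20 and -0.10. On 4q the clone difference was 0.15, -0.06 and -0.08 and on 13q 0.11, -0.09 and -0.10. With 1 array per clone and day these shifts of the day-0 arrays were not tested.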
